A study of Mus musculus with 30 samples.

Results

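The 10 genes described here encode the parts of the Toll-like receptor 4 (TLR4) pathway closest to the receptor: its co-receptors Cd14 and Ly96, the adaptors Tirap, Myd88, Ticam2 and Ticam1, which carry a TIR domain, and the proteins that act next to them, Irak2, Irak3, Traf6 and Peli1. They were chosen by name, with earlier results of these data known. All 10 were found among the 32361 gene IDs of the deposited table, and all 10 were among the 15119 IDs that passed a filter on low counts. RNA was sequenced from bone marrow-derived macrophages, which are cells grown from mouse marrow in medium with supernatant of L929 cells as the source of macrophage colony-stimulating factor. The mice were Ticam2-/- (written KO) or wild type (WT), with C57BL/6J named as the strain, and no age was stated for them in the labels. Cells of each genotype received LPS (lipopolysaccharide, from the outer membrane of Gram-negative bacteria) at 10 ng/mL for 2 h or 6 h, LTA (lipoteichoic acid, from the wall of Gram-positive bacteria) at 100 ng/mL for 2 h or 6 h, or no ligand. Each of the 10 groups held 3 libraries, which the labels trace to 3 KO and 3 WT animals as biological replicates. The labels do not state what the KO allele deletes within Ticam2.

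In this pathway CD14 picks up LPS at the cell surface and hands it to a complex of TLR4 and MD-2, the product of Ly96. The receptor then signals through 2 pairs of adaptors. At the plasma membrane TIRAP brings in MyD88, which assembles IRAK kinases and the ubiquitin ligase TRAF6 and leads to NF-kB activation and inflammatory cytokines. From endosomes TRAM, the product of Ticam2, brings in TRIF, the product of Ticam1, which leads to interferon beta. Peli1 encodes Pellino 1, a ubiquitin ligase that works with IRAK proteins and in TRIF signalling, and Irak3 encodes IRAK-M, an inhibitor of the MyD88 arm. LTA is sensed chiefly by TLR2, which uses TIRAP and MyD88.

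The genes did not respond alike in KO cells. Peli1 rose little above its resting level in KO and averaged 69.7 ± 2.31 CPM (read counts scaled to library size) in KO and 1072 ± 44.5 CPM in WT after 6 h of LPS (mean ± SD, n = 3 each), and was lower in KO in all 5 conditions. Cd14, Myd88, Irak2 and Irak3 were induced in KO and reached lower levels than in WT at 6 h with each ligand, while at 2 h the same 4 genes, together with Ticam1, were higher in KO than in WT. The smaller responses of KO cells held for LTA as well as for LPS. No member was called different between LPS and LTA in KO cells at either time, beside only 2.66% of all genes at 6 h and 1.40% at 2 h.

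CPM values were computed on library sizes adjusted by TMM. Log2 fold changes are given ± standard error with 3 libraries per group, and a gene is called changed where the adjusted p of edgeR's quasi-likelihood test, taken over all 15119 genes of a comparison, was below 0.05. The 12 libraries of 2 h held 1334784 to 2658329 counts and the 18 untreated and 6 h libraries 10641070 to 13521660. The 2 sets differed in more than depth. Erythroid markers summed to 0 to 0.456 CPM of the library total in the 2 h libraries and to 5599 to 7733 CPM in the others, with Hbb-bs, Hbb-bt and Alas2 at 0 in all libraries of 2 h. Fibroblast markers summed to 57.02 to 123 CPM at 2 h and to 3.01 to 5.97 CPM in the others, and hepatocyte markers to 40.6 to 85.7 CPM and to 19.8 to 28.7 CPM. The hepatocyte markers did not all go 1 way, with Ttr at 0 in all libraries of 2 h and Alb at 0 in all untreated and 6 h libraries. The set of 2 h holds no untreated cells, so a 2 h response also compares the sets, whereas KO against WT at 2 h stays within 1 set, where the ranges of these 3 sums overlapped between genotypes. The 10 macrophage markers, of which Cd14 and Tlr4 are members of the pathway studied, were detected in both sets and their sums separated the genotypes in most conditions. They summed to 25885 to 27415 CPM in KO and 19206 to 20684 CPM in WT with LPS at 6 h, to 26687 to 27540 CPM in KO and 23749 to 23927 CPM in WT with LTA at 6 h, and to 27763 to 28083 CPM in KO and 29565 to 31035 CPM in WT without ligand. At 2 h they were at 30083 to 31724 CPM in KO and 34135 to 35032 CPM in WT with LPS and overlapped with LTA, and their part in the results was not tested. After 6 h, endothelial markers summed to 5.40 to 6.98 CPM in KO and 54.9 to 57.3 CPM in WT with LPS, and to 6.22 to 6.94 CPM in KO and 24.3 to 25.2 CPM in WT with LTA, and their part in the results was not tested. In bulk RNA, fewer cells of a type and less RNA per cell cannot be told apart.

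**Figure D1:**
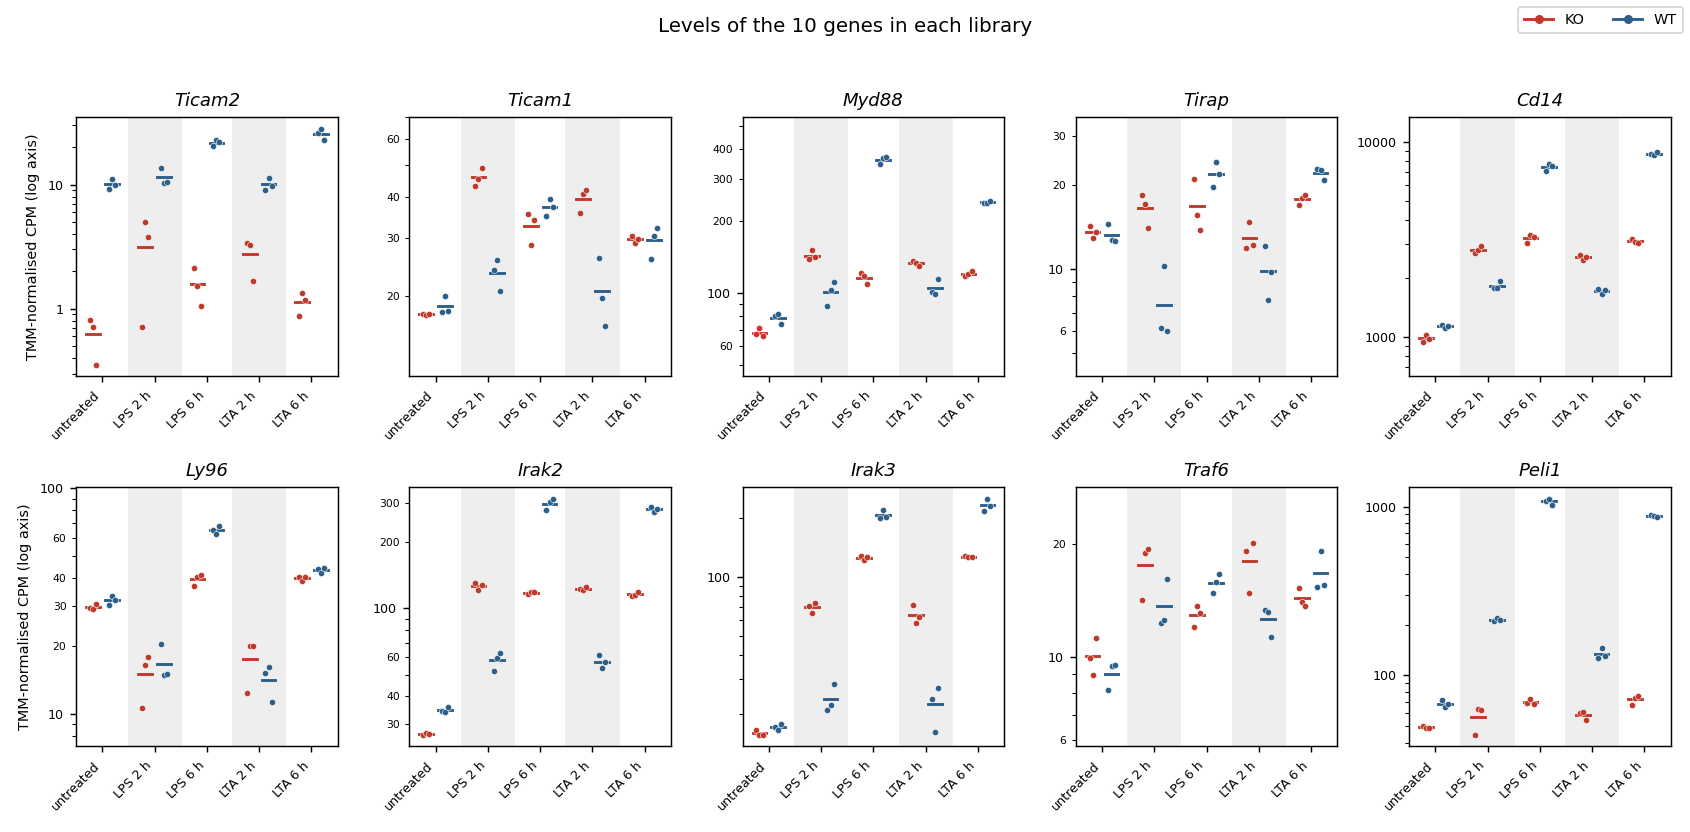
TMM-normalised CPM (log axis) of each of the 10 genes in every library, with KO left of WT, lines for group means and grey bands for the libraries of 2 h. Peli1 stays between 44.6 and 75.7 CPM in all KO libraries, and Irak2 in KO is above WT at 2 h and below WT at 6 h.

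How the libraries are scaled matters for the small differences. TMM factors were 0.691 to 0.710 in WT with LPS at 6 h, 0.746 to 0.750 in WT with LTA at 6 h and 0.987 to 1.151 in the other 8 groups. With total counts in place of TMM, the median gene had a log2 fold change of -0.19 in KO and -0.66 in WT for the LPS response at 6 h, of -0.18 in KO and -0.58 in WT for the LTA response, and of 0.54 and 0.44 in KO against WT. Changes below are relative to the median gene as TMM sets it, and some are given on total counts as well.

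Ticam2 is the targeted gene and checks the genotype label (ENSMUSG00000056130, minus strand of chromosome 18, 46557291 to 46574533; all coordinates are GRCm38 and all 10 genes are protein coding). As CPM of the library total it read 0.927, 0.814 and 0.408 in untreated KO libraries and 10.5, 12.6 and 11.3 in untreated WT libraries. After 6 h of LPS it read 2.21, 1.498 and 1.04 in KO and 14.5, 15.6 and 15.3 in WT. KO and WT libraries did not overlap in any of the 5 conditions, and the fold in KO over WT ran from -4.49 ± 0.16 on the log2 scale with LTA at 6 h to -1.63 ± 0.33 with LPS at 2 h. The smaller difference at 2 h came with higher KO readings, at 0.749, 5.27 and 3.95 CPM of the total in KO with LPS and 15.2, 11.5 and 11.6 in WT, where the KO libraries held only 1 to 14 counts. The exons of Ticam2 share 838 of their 5792 bases (14.5%, chromosome 18, 46560235 to 46561072) with exons of Tmed7 on the same strand, so counts of these genes there cannot be told apart. Tmed7 itself, a cargo receptor gene, had a log2 fold change in KO over WT of -0.19 ± 0.05 in untreated cells and of -0.31 ± 0.05 and -0.33 ± 0.05 with LPS and LTA at 6 h, where both turned with total counts (0.21 and 0.11). In KO, Ticam2 rose with LPS at 6 h (1.32 ± 0.33, adjusted p = 7e-04). The KO rise with LTA at 6 h (0.86 ± 0.37, adjusted p = 0.046) lost its call without untreated KO replicate 2 (0.97) or 3 (0.56), without KO LTA 6 h replicate 2 (0.72) or 3 (0.83), with no filter on low counts (0.85), with DESeq2 (0.875) and with total counts (0.68). In WT, Ticam2 rose with LPS (1.11 ± 0.11) and LTA (1.34 ± 0.10) at 6 h, and by 0.41 and 0.75 with total counts.

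A gene outside the pathway, Nnt, which encodes a mitochondrial transhydrogenase and is known to differ among C57BL/6 substrains, also separated the genotypes in part of the libraries. Its 2 overlapping gene IDs together read 31.7 ± 1.68 CPM of the total in untreated KO cells and 14.5 ± 0.365 in untreated WT cells, and 18.2 ± 0.359 in KO and 6.09 ± 0.603 in WT with LPS at 6 h. At 2 h the genotypes overlapped, with 20.2 ± 1.30 CPM in KO and 22.3 ± 2.48 in WT after LPS. The part of this difference in the results was not tested.

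**Figure D2:**
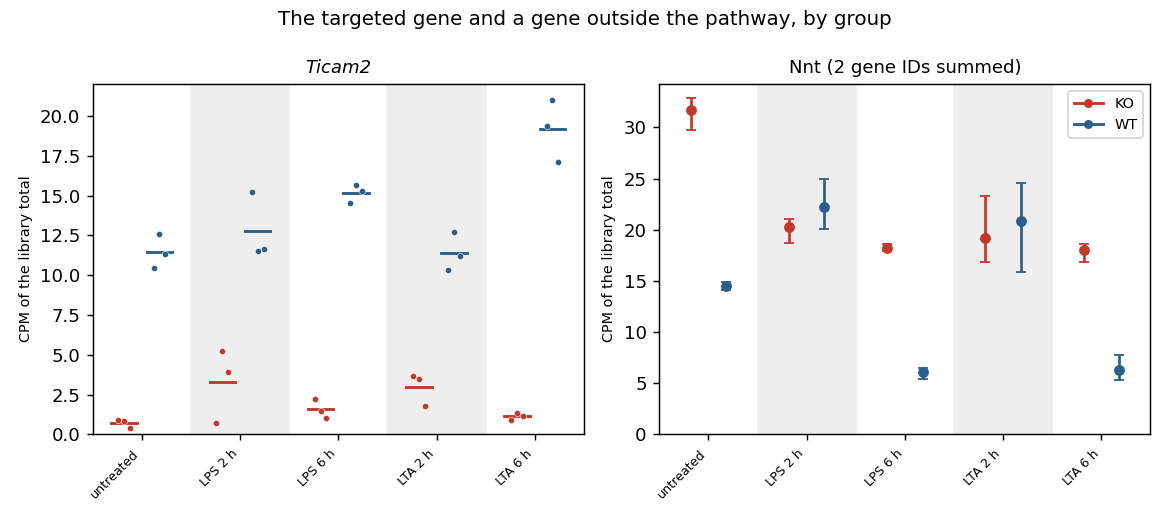
CPM of the library total for Ticam2 (each library, with group means as lines) and for Nnt (2 gene IDs summed; group means with the range of 3 libraries), KO left of WT, grey bands for 2 h. Ticam2 is lower in KO in every condition, and Nnt is higher in KO in untreated and 6 h cells and overlaps at 2 h.

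Of the co-receptors, Cd14 (ENSMUSG00000051439, chromosome 18, 36725067 to 36726798, minus strand) was highly expressed and strongly induced. After 6 h of LPS it read 3042, 3321 and 3273 CPM in KO and 7084, 7770.4 and 7554 CPM in WT. After 6 h of LTA it read 3182, 3059.5 and 3032 CPM in KO and 8696, 8561 and 8948 CPM in WT. Untreated cells held 944, 1025 and 974 CPM in KO and 1147, 1111 and 1130.0 CPM in WT. The genotypes did not overlap in any of these conditions, and the KO level lay between the resting and the induced WT level. The log2 fold change in KO over WT was -1.218 ± 0.04 with LPS (adjusted p = 1.1e-32) and -1.499 ± 0.04 with LTA at 6 h, and -0.20 ± 0.04 in untreated cells; with total counts the LPS value was -0.69. At 2 h the order was the opposite, with 2694, 2802 and 2918 CPM in KO and 1778, 1772 and 1930.1 CPM in WT after LPS (0.62 ± 0.04, adjusted p = 1.8e-17), and LTA gave 0.58 ± 0.04. Cd14 lies 9.83 Mb from the targeted gene. Within 10 Mb of Ticam2, 11 of 98 tested genes (11.2%) were called in untreated KO against WT, beside 13.4% of all genes. Of these 11, 9 were lower in KO and 2 higher, beside 7.47% of all genes lower and 5.97% higher. Within 5 Mb, 4 of 30 were called, all lower. The part of this in the Cd14 difference was not tested.

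Ly96 (ENSMUSG00000025779, chromosome 1, 16688051 to 16709611, plus strand), the gene of MD-2, differed between the ligands at 6 h in WT and was not called in KO. LPS gave 36.7, 40.3 and 41.4 CPM in KO and 65.2, 62.8 and 68.3 CPM in WT. LTA gave 40.4, 38.8 and 40.5 CPM in KO and 43.7, 41.9 and 44.4 CPM in WT. Untreated cells held 29.5, 29.1 and 30.8 CPM in KO and 30.3, 33.4 and 32.1 CPM in WT. The WT libraries with LPS thus stood apart from all others, and with LTA every KO library was below every WT library. KO over WT was -0.73 ± 0.06 with LPS (adjusted p = 4.9e-15, -0.21 with total counts) and -0.12 ± 0.07 with LTA (adjusted p = 0.13, 0.32 with total counts), and the LTA value was called without WT LTA 6 h replicate 2 (-0.20), with relative log expression factors (-0.20), with a minimum count of 30 (-0.18) and with DESeq2 (-0.20). The WT response to LTA, 0.44 ± 0.07, turned to -0.16 with total counts. In the 2 h libraries Ly96 was at 10.6 to 20.1 CPM in KO and 11.3 to 20.3 CPM in WT, below the untreated level in both genotypes and with both ligands (log2 fold changes of -0.80 to -1.19).

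The receptor genes themselves moved in opposite directions. Tlr4 fell with both ligands in both genotypes, and after 6 h of LPS it averaged 50.1 ± 1.217 CPM in KO and 34.8 ± 1.04 CPM in WT (KO over WT 0.53 ± 0.06, 1.05 with total counts), while after 2 h it averaged 23.1 ± 1.55 CPM in KO and 52.2 ± 8.25 CPM in WT (-1.20 ± 0.13). Tlr2 rose with both ligands, to 304 ± 4.64 CPM in KO and 563 ± 33.3 CPM in WT after 6 h of LPS (KO over WT -0.89 ± 0.04, -0.37 with total counts) and to 406 ± 10.9 CPM in KO and 191 ± 17.6 CPM in WT after 2 h (1.08 ± 0.06).

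Among the adaptors, Ticam1 (ENSMUSG00000047123, chromosome 17, 56269319 to 56276786, minus strand), the gene of TRIF, differed little between genotypes at 6 h on the TMM scale. LPS for 6 h gave 35.5, 28.4 and 34.0 CPM in KO and 35.0, 39.5 and 37.3 CPM in WT. LTA gave 30.5, 29.0 and 29.7 CPM in KO and 25.9, 30.3 and 32.2 CPM in WT. The genotypes overlapped with both ligands. KO over WT was -0.19 ± 0.07 with LPS (adjusted p = 0.022) and 0.01 ± 0.08 with LTA (adjusted p = 0.90, 95% interval -0.15 to 0.17). The LPS call was lost without KO LPS 6 h replicate 2 (-0.09) and with no filter on low counts (-0.13), and with total counts both values were positive (0.33 and 0.45). At 2 h, Ticam1 read 43.2, 45.4 and 49.1 CPM in KO and 24.0, 25.6 and 20.6 CPM in WT with LPS, without overlap (1.00 ± 0.15, adjusted p = 4.8e-07), and LTA gave 0.95 ± 0.16.

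Myd88 (ENSMUSG00000032508, chromosome 9, 119335934 to 119341411, minus strand) was induced in both genotypes and further in WT. The 250 bases before its RefSeq start held the only match to an interferon-stimulated response element among the members' windows that were searched, and are shown here for that reason with the match in capitals (GRCm38.p6, chr9:119340019-119340268, minus strand):
Myd88: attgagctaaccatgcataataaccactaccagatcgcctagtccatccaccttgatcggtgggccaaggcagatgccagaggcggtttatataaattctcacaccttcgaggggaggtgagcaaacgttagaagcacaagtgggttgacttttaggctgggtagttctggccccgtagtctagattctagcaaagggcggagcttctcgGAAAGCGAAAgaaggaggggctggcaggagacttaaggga
LPS for 6 h gave 122, 118 and 109 CPM in KO and 348, 366 and 371 CPM in WT. LTA for 6 h gave 118, 120.0 and 123 CPM in KO and 239, 238 and 242 CPM in WT. Untreated cells held 67.4, 71.6 and 66.1 CPM in KO and 80.1, 82.2 and 74.1 CPM in WT. In KO the ranges of the ligands overlapped, whereas in WT every LPS library was above every LTA library. KO over WT was -1.64 ± 0.05 with LPS (adjusted p = 3.9e-36) and -0.99 ± 0.05 with LTA (adjusted p = 1.5e-25; -0.56 with total counts), and -0.21 ± 0.05 in untreated cells. After 2 h of LPS it read 139, 151 and 141 CPM in KO and 88.5, 103 and 111 CPM in WT (0.50 ± 0.08, adjusted p = 7.8e-07), and LTA gave 0.35 ± 0.08. The KO level at 2 h was thus not below the KO level at 6 h, with the sets differing as described.

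Tirap (ENSMUSG00000032041, chromosome 9, 35184551 to 35200291, minus strand), the bridging adaptor of MyD88, differed little between genotypes at 6 h. It read 21.1, 15.6 and 13.8 CPM in KO and 19.7, 24.3 and 22.0 CPM in WT after 6 h of LPS, and 17.0, 18.04 and 18.5 CPM in KO and 22.8, 22.7 and 20.9 CPM in WT after 6 h of LTA. The genotypes overlapped with LPS and not with LTA. KO over WT was -0.39 ± 0.10 with LPS (adjusted p = 0.00054; -0.26 without KO LPS 6 h replicate 3) and -0.31 ± 0.10 with LTA (adjusted p = 0.0060), and both turned with total counts (0.13 each). At 2 h, with only 9.5 to 48.5 counts a library, LPS gave 18.4, 17.2 and 14.0 CPM in KO and 6.15, 10.2 and 6.00 CPM in WT (1.18 ± 0.27, adjusted p = 0.00082), and with LTA the genotypes overlapped (0.40 ± 0.27, adjusted p = 0.42).

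Downstream of the adaptors, Irak2 (ENSMUSG00000060477, chromosome 6, 113638467 to 113695026, plus strand), a member of the IRAK family that carries on MyD88 signalling, gave opposite orders of the genotypes in the 2 h and the 6 h libraries. At 2 h, LPS gave 131, 122 and 128 CPM in KO and 52.3, 59.7 and 63.0 CPM in WT. At 6 h, LPS gave 116, 119 and 119 CPM in KO and 280.4, 303 and 314 CPM in WT. Untreated cells held 26.8, 27.3 and 27.0 CPM in KO and 34.4, 34.0 and 35.6 CPM in WT. KO libraries were thus close to their 6 h level at 2 h, while WT libraries at 2 h were far below theirs. In these levels time and library set cannot be told apart. KO over WT was 1.10 ± 0.08 with LPS at 2 h (adjusted p = 1.5e-16) and -1.34 ± 0.04 at 6 h (adjusted p = 7.2e-34; -0.82 with total counts). LTA gave 1.10 ± 0.08 at 2 h and -1.28 ± 0.04 at 6 h (-0.84 with total counts).

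Irak3 (ENSMUSG00000020227, chromosome 10, 120141648 to 120202130, minus strand), the gene of the inhibitor IRAK-M, rose most among the members in KO cells at 6 h. RefSeq gives it 2 starts, and the 250 bases before the downstream one are shown because they belong to the member with the largest KO response at 6 h (GRCm38.p6, chr10:120201598-120201847, minus strand, NF-kB motif matches of both strands in capitals):
Irak3: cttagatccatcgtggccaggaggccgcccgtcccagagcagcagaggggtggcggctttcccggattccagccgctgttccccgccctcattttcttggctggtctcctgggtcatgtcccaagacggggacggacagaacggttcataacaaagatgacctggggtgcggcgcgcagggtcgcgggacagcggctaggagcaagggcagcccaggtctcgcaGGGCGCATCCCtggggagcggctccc
LPS for 6 h gave 128, 121 and 127 CPM in KO and 199, 221 and 203 CPM in WT. LTA for 6 h gave 128, 127 and 127 CPM in KO and 218, 250.8 and 230.2 CPM in WT. Untreated cells held 16.5, 15.6 and 15.6 CPM in KO and 17.0, 16.4 and 17.7 CPM in WT, which overlapped (-0.10 ± 0.09, adjusted p = 0.55). The KO response at 6 h was 2.98 ± 0.07 with LPS and 3.00 ± 0.07 with LTA, and KO over WT was -0.73 ± 0.05 with LPS (adjusted p = 8.4e-19; -0.20 with total counts) and -0.88 ± 0.05 with LTA (-0.44 with total counts). After 2 h of LPS it read 70.8, 65.4 and 73.4 CPM in KO and 20.9, 22.2 and 28.5 CPM in WT (1.49 ± 0.13, adjusted p = 5.8e-14), and LTA gave 1.51 ± 0.14.

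Traf6 (ENSMUSG00000027164, chromosome 2, 101678429 to 101701669, plus strand), the ubiquitin ligase of the MyD88 arm, stayed within a narrow range. After 6 h of LPS it read 12.02, 13.6 and 13.1 CPM in KO and 14.8, 15.8 and 16.6 CPM in WT. The groups did not overlap, and KO over WT was -0.29 ± 0.10 with LPS (adjusted p = 0.010) and -0.22 ± 0.10 with LTA (adjusted p = 0.048), both turning with total counts (0.24 and 0.22). The LPS call was lost without KO LPS 6 h replicate 1 (-0.23) and with no filter (-0.23), and the LTA call without KO LTA 6 h replicate 2 (-0.20) or 3 (-0.18), without WT LTA 6 h replicate 2 (-0.17) and with no filter (-0.17), while it was -0.33 without WT LTA 6 h replicate 1. At 2 h the KO over WT values were 0.36 ± 0.20 with LPS and 0.52 ± 0.21 with LTA (adjusted p = 0.27 and 0.10).

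Peli1 (ENSMUSG00000020134, chromosome 11, 21091291 to 21150323, plus strand) differed most between the genotypes among the members other than the targeted gene, except with LTA at 2 h, where Irak3 differed more. The 250 bases before its RefSeq start are shown for comparison with those above (GRCm38.p6, chr11:21091074-21091323, plus strand, 1 NF-kB motif match on the minus strand in capitals):
Peli1: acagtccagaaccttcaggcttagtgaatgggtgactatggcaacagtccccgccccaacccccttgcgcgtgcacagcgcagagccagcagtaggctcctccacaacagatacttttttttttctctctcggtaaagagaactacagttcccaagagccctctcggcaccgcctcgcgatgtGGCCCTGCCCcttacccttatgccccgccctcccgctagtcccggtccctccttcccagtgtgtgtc
LPS for 6 h gave 68.8, 72.3 and 68.0 CPM in KO and 1080.1, 1112 and 1024 CPM in WT. LTA for 6 h gave 67.1, 73.9 and 75.7 CPM in KO and 886, 875 and 868 CPM in WT. Untreated cells held 50.2, 48.6 and 48.9 CPM in KO and 71.2, 65.1 and 67.5 CPM in WT. No KO library of any condition thus exceeded 75.7 CPM, close to the untreated WT level, while WT libraries at 6 h stood far above it. KO over WT was -3.94 ± 0.05 with LPS (a fold of 15.4, adjusted p = 4.0e-53), -3.60 ± 0.05 with LTA (adjusted p = 7.7e-51) and -0.46 ± 0.05 in untreated cells (adjusted p = 1.8e-09). The difference stood at 2 h too, with 44.6, 62.9 and 62.6 CPM in KO and 210.3, 217 and 213 CPM in WT after LPS (-1.87 ± 0.08, adjusted p = 3.2e-26), and 60.0, 60.6 and 54.6 CPM in KO and 127, 146 and 131 CPM in WT after LTA (-1.20 ± 0.09, adjusted p = 1.4e-16). The KO response at 6 h was 0.50 ± 0.05 with LPS and 0.55 ± 0.06 with LTA, and at 2 h it was 0.24 ± 0.08 and 0.25 ± 0.08. The 2 h calls were lost with LPS without KO LPS 2 h replicate 2 (0.13) or 3 (0.18), with LTA without KO LTA 2 h replicate 1 (0.22) or 2 (0.21), and for both ligands with no filter (0.18 and 0.19) and with total counts (0.12 and 0.16).

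RefSeq promoter windows (250 bases before to 50 after a start, GRCm38.p6) were matched by symbol for 7 of the members, with 9 windows in all. The members on chromosome 18, Ticam2 and Cd14, were left out of this search, and no window was available for Ly96. A loose NF-kB motif (GGGNNNNNCC, both strands, overlapping matches counted) was found in windows of 6 of the 7, and in 50.8% of all 32851 windows. The former is a count by member and the latter a share by window, so they are not like for like. Its stricter form, with A or T at the 3 central places, was in 0 of the 9 windows and in 5.01% of all. The interferon-stimulated response element (GAAANNGAAA) was found in the Myd88 window alone among the 9, 40 to 31 bases before the start, and in 3.44% of all windows. The AP-1 motif (TGANTCA) was in 0 of the 9 and in 7.81% of all. Peli1, with the largest WT response to LPS, had 2 loose NF-kB matches, 1 of them downstream of the start, and Irak3 had 5 at its downstream start, 3 of them after it, and 0 at its upstream start. A match describes these letters only.

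Across the comparisons, the members responded as a group in both genotypes at 6 h and the size differed. With LPS, 10 of 10 rose in KO (median 0.83) and 10 of 10 in WT (median 1.65), beside 25.7% of all genes in KO and 36.6% in WT. With LTA, 10 of 10 rose in KO (median 0.79) and 10 of 10 in WT (median 1.47), beside 25.7% of all genes in KO and 35.4% in WT. The medians of all genes were 0.01 and 0.03 with LPS in KO and WT, and 0.00 and 0.01 with LTA. With total counts the LPS rises of Tirap and Traf6 lost their calls in KO (0.11 and 0.16) and in WT (0.02 and 0.11). With LTA the same scaling ended the calls of Ticam2 and Tirap in KO (0.68 and 0.21) and of Ticam1 and Tirap in WT (0.07 and 0.13), and Ly96 in WT turned to -0.16. The rise of Tirap with LPS in KO (0.30 ± 0.10) also lost its call without KO LPS 6 h replicate 1 (0.11).

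**Figure D3:**
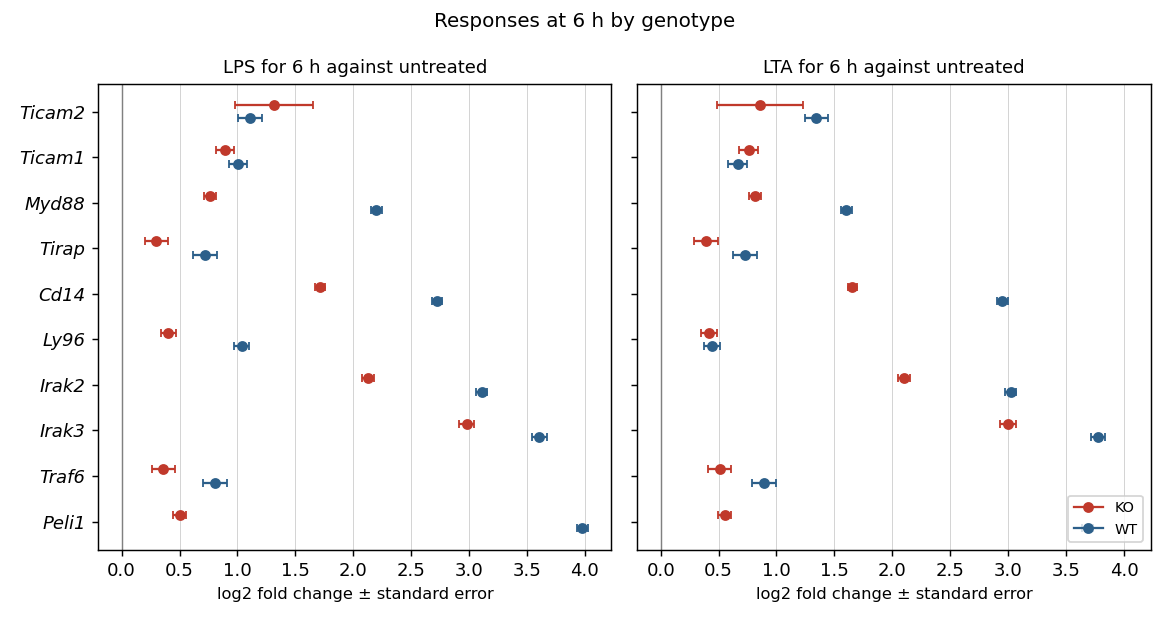
Log2 fold change ± standard error at 6 h against untreated cells for each gene, KO above WT, with LPS on the left and LTA on the right (3 libraries per group). Peli1 shows the widest gap (0.50 in KO and 3.98 in WT with LPS), and Ticam1 responses lie close together.

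The genotype difference in these responses was tested directly. For LPS at 6 h, 8 of 10 members had a smaller response in KO than in WT, beside 23.5% of all genes, and the values ran from -0.42 ± 0.14 for Tirap to -3.48 ± 0.07 for Peli1. Ticam1 (-0.11 ± 0.11, adjusted p = 0.44) and Ticam2 (0.21 ± 0.33, adjusted p = 0.64) were not called. With total counts 5 were called, 4 lower (Myd88 -0.93, Cd14 -0.51, Irak2 -0.48 and Peli1 -2.97) and 1 higher (Ticam1, 0.39), beside 10099 of all 15119 genes called in either direction. The values of Tirap (0.08) and Traf6 (0.05) turned, and those of Ly96 (-0.13) and Irak3 (-0.12) lost their calls. The Traf6 call (-0.45 ± 0.15) was lost without untreated KO replicate 3 (-0.35) and the Tirap call without KO LPS 6 h replicate 3 (-0.28). For LTA at 6 h, 6 of 10 responses were smaller in KO, beside 20.1% of all genes. They were Peli1 (-3.14 ± 0.07), Cd14 (-1.30 ± 0.06), Irak2 (-0.92 ± 0.07), Myd88 (-0.79 ± 0.07), Irak3 (-0.78 ± 0.10) and Traf6 (-0.38 ± 0.14). With total counts 5 were lower and 2 higher (Ticam1 0.51 and Ly96 0.395), beside 9233 of all 15119 genes called in either direction. On that scaling Myd88 was at -0.37, Irak2 at -0.50 and Irak3 at -0.36. The Traf6 value was 0.03 with total counts and lost its call with no filter (-0.34) and without untreated WT replicate 1 (-0.31), untreated KO replicate 3 (-0.29), WT LTA 6 h replicate 2 (-0.33) or KO LTA 6 h replicate 3 (-0.35). Tirap (-0.34 ± 0.14, adjusted p = 0.051) passed the threshold when any of 6 libraries was left out (-0.44 to -0.36), with relative log expression factors (-0.42), a minimum count of 30 (-0.40), a replicate block (-0.34, adjusted p = 0.04) and DESeq2 (-0.42), and turned to 0.08 with total counts (adjusted p = 0.68).

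As levels, KO cells held less of 5 members in the untreated state (Ticam2, Myd88, Cd14, Irak2 and Peli1), beside 7.47% of all genes. With LPS at 6 h, 10 of 10 were lower in KO, beside 30.6% of all genes, and with LTA at 6 h 8 of 10, beside 28.0%. Ticam2, the targeted gene, is lower by design and is among the lower members in each count of this paragraph. With total counts 7 were lower and 2 higher with LPS, beside 14.5% and 61.3% of all genes, and 6 lower and 3 higher with LTA, beside 12.1% and 58.9%. At 2 h the direction was mostly the other way. With LPS 6 of 10 were higher in KO (Irak3, Tirap, Irak2, Ticam1, Cd14 and Myd88), beside 9.11% of all genes, and 2 lower (Peli1 and Ticam2), beside 7.24%. With LTA 5 were higher (the same without Tirap), beside 7.83%, and the same 2 lower, beside 5.21%. With total counts these 2 h counts were the same, beside 6.04% of all genes higher and 9.82% lower with LPS and 5.53% and 6.93% with LTA.

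**Figure D4:**
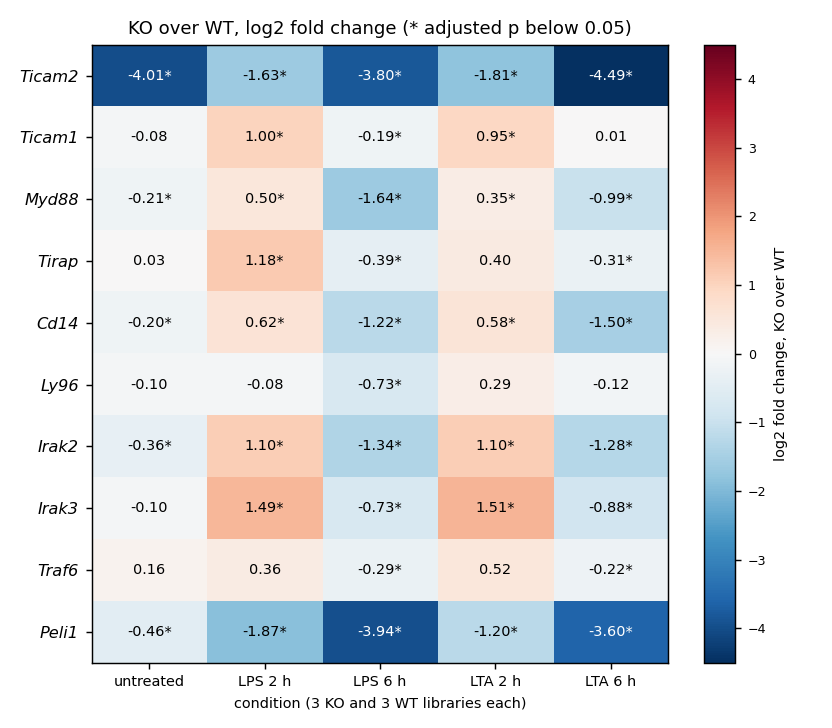
Log2 fold change in KO over WT for each gene in the 5 conditions (3 KO and 3 WT libraries each), blue for lower and red for higher in KO, with stars for adjusted p below 0.05. Cd14, Myd88, Irak2 and Irak3 are higher in KO at 2 h and lower at 6 h, and Peli1 and Ticam2 are lower throughout.

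Against untreated cells, the 2 h libraries showed the same contrast, with the library sets compared as well. In KO, 8 of 10 members were higher with LPS, beside 26.8% of all genes, and 8 with LTA, beside 26.3%, and 1 (Ly96) was lower with each, beside 30.4% and 29.7%. In WT, 6 were higher with LPS, beside 19.5%, and 6 with LTA, beside 19.0%, while 2 (Tirap and Ly96) and 1 (Ly96) were lower, beside 25.5% and 23.9%. In WT, the calls of Irak3 (0.53 ± 0.13 with LPS and 0.41 ± 0.14 with LTA) and Traf6 (0.64 ± 0.17 and 0.48 ± 0.19) depended on which libraries were kept. The LPS calls were lost without WT LPS 2 h replicate 3 (0.33 for Irak3 and 0.46 for Traf6). The Irak3 call with LTA was lost without WT LTA 2 h replicate 1 (0.36) or 3 (0.21), and the Traf6 call without untreated WT replicate 1 (0.39) or any of the WT LTA 2 h replicates (0.42 to 0.55). Ticam1 with LPS (0.31 ± 0.14, adjusted p = 0.069) was called without untreated WT replicate 2 (0.35). The genotype difference in the 2 h response was positive for 7 members with LPS, beside 10.0% of all genes, and for 6 with LTA, beside 9.02%, with Irak3 at 1.59 ± 0.16 and 1.61 ± 0.16. It was negative for Peli1 alone, beside 7.90% and 6.33%, at -1.41 ± 0.10 and -0.73 ± 0.10. The Ticam2 value with LPS (2.38 ± 0.49) was 1.81 and not called without KO LPS 2 h replicate 2. Ticam2, the targeted gene, is among the positive members with each ligand, on 1 to 14 counts a KO library with LPS and 3 to 8 with LTA.

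Between the ligands, which were given at different doses, KO and WT cells differed. In KO, 0 of 10 members were called between LPS and LTA at 6 h, beside 2.66% of all genes, and 0 of 10 at 2 h, beside 1.40%. The widest 95% interval at 6 h was that of Ticam2 (-0.15 to 1.06), and that of Peli1 was -0.16 to 0.06. At an unadjusted p under 0.05 the KO comparisons called 0 members at 6 h and 1 at 2 h (Cd14, 0.13 ± 0.04), and DESeq2 with adjustment called 0 at each time. In WT at 6 h, 4 members were higher with LPS, beside 17.9% of all genes, and 3 lower, beside 14.0%. Ly96 (0.60 ± 0.07), Myd88 (0.59 ± 0.05), Ticam1 (0.34 ± 0.08) and Peli1 (0.29 ± 0.04, 0.19 with total counts) were higher with LPS. Cd14 (-0.23 ± 0.04), Ticam2 (-0.24 ± 0.09, adjusted p = 0.048) and Irak3 (-0.17 ± 0.05, -0.27 with total counts) were lower with LPS. The Ticam2 call was lost when any of 5 libraries was left out (WT LPS 6 h replicates 1, 2 and 3 and WT LTA 6 h replicates 1 and 2, with values of -0.27 to -0.18), with no filter and with DESeq2 (-0.24 each). The Irak3 call was lost without WT LTA 6 h replicate 2 (-0.12), and Irak2 (0.09 ± 0.04, adjusted p = 0.099) was called without WT LPS 6 h replicate 1 (0.13) and was at -0.01 with total counts. In WT at 2 h, 1 of 10 was called, beside 1.20% of all genes: Peli1, at 210.3, 217 and 213 CPM with LPS and 127, 146 and 131 CPM with LTA (0.67 ± 0.07, adjusted p = 2.3e-10). The difference between the genotypes in this contrast was called for 4 members at 6 h, beside 22.7% of all genes: Myd88 (-0.64 ± 0.07), Ly96 (-0.61 ± 0.09), Peli1 (-0.34 ± 0.07) and Cd14 (0.28 ± 0.06). Ticam2 joined them without KO LPS 6 h replicate 3 (0.92), and Irak3 with total counts (0.24). At 2 h it was called for Peli1 alone (-0.68 ± 0.12, adjusted p = 0.0010), beside 0.126% of all genes.

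Other genes of the pathway, in 5 lists written by name with earlier results of these data known, moved in both directions in the KO to WT comparison. Among 21 core signalling genes, LPS at 6 h left 9 higher and 10 lower in KO (median -0.18), beside 32.7% of all genes higher and 30.6% lower. The lower ones included Casp8 (-1.96 ± 0.06), a protease of the TRIF and death receptor complexes, the IkB kinase gene Ikbkb (-1.25 ± 0.05) and the TAK1 partner Tab2 (-1.14 ± 0.05). Of 8 tested genes of the TLR2 complex and of LPS or LTA uptake, 5 were lower and 2 higher (median -0.82), with the scavenger receptor Msr1 at -1.36 ± 0.04 and Tlr1 at -0.93 ± 0.06. Of 14 tested genes of TLR4 folding, traffic and degradation, 6 were lower and 4 higher. Rab7b, a small GTPase that sends TLR4 to lysosomes, was at 108 ± 2.07 CPM in KO and 31.3 ± 0.632 CPM in WT (1.79 ± 0.06), with LTA at 106 ± 1.68 CPM in KO and 11.8 ± 0.811 CPM in WT (3.16 ± 0.07), and at 2 h it was lower in KO (-1.38 ± 0.07 with LPS). Of 17 tested negative regulators, 7 were lower and 8 higher. Socs1, a suppressor of cytokine signalling, was at 47.0 ± 4.17 CPM in KO and 554 ± 32.3 CPM in WT (-3.56 ± 0.05), and Tnfaip3, which encodes A20, at 306 ± 8.67 CPM in KO and 947 ± 44.4 CPM in WT (-1.63 ± 0.04). At 2 h the Socs1 value was -0.06 ± 0.14 (adjusted p = 0.87) and Tnfaip3 was lower in KO (-1.07 ± 0.06). Of 10 Pellino, IRAK and TRAF relatives, 4 were lower and 4 higher, with Traf1, a TRAF family member, at -1.95 ± 0.05 at 6 h and 0.64 ± 0.06 at 2 h. With total counts the 5 lists, in the same order, held 5, 5, 2, 7 and 4 genes lower in KO and 14, 3, 11, 10 and 5 higher with LPS at 6 h, so these splits depend on the scaling, while the genes named here kept their directions at smaller sizes for Ikbkb (-0.73), Tab2 (-0.62), Msr1 (-0.83) and Tlr1 (-0.41). The core list's median was 0.34 and that of the TLR2 and uptake list -0.30 with total counts, an alternative for the lists that was chosen after seeing the data. With LTA at 6 h the lists held 8, 5, 7, 7 and 4 genes lower in KO and 8, 2, 5, 6 and 4 higher, beside 28.0% of all genes lower and 30.5% higher (5, 4, 1, 6 and 4 lower and 14, 3, 11, 9 and 4 higher with total counts). With LPS at 2 h they held 2, 0, 3, 4 and 2 lower and 5, 4, 3, 3 and 3 higher, beside 7.24% and 9.11% of all genes, and in untreated cells 5, 3, 3, 4 and 3 lower and 0, 2, 0, 1 and 0 higher, beside 7.47% and 5.97%. As outputs of the arms, Tnf had a log2 fold change in KO over WT at 6 h of -0.25 ± 0.04 with LPS, which turned to 0.27 with total counts, and of -1.196 ± 0.04 with LTA (-0.76 with total counts). Ifnb1, the interferon beta gene, had log2 fold changes of -3.99 ± 0.24 and -3.72 ± 0.28 (-3.47 and -3.29 with total counts). Its KO libraries held only 5 to 7 counts with LPS and 3 to 7 with LTA. The KO minus WT response of Ifnb1 at 6 h was not called with LPS (-2.44 ± 1.16) or LTA (-2.18 ± 1.16).

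Likeness to the members was described by the Pearson correlation of log2 CPM over the 18 untreated and 6 h libraries, which share genotype and treatment, among 8944 genes. Irak2 was most like Traf1 (0.999) and Fcgr2b (0.998), an inhibitory Fc receptor gene. Cd14 was most like Cers6 and Acsl1 (0.998 each), genes of ceramide synthesis and fatty acid activation, and Irak3 like Gpr18 and Rel (0.998 each), the gene of an NF-kB subunit. Peli1 was most like Parp14 (0.998) and Gbp7 (0.996), both known as interferon-induced genes, and Ticam2 like H2-Eb1 (0.985) and Cd74 (0.983) of MHC class II presentation. Myd88 was most like Ywhaz and Rapgef2 (0.996 each). For the others, the genes most alike were Rab1a for Ly96 (0.986), Alas1 for Ticam1 (0.965), Slc4a2 for Traf6 (0.969) and Cltc for Tirap (0.957). Among the members, Cd14 and Irak2 were closest (0.994), and Ticam2 and Ticam1 were farthest apart (0.326). Ticam2 is the targeted gene, and its level separates KO from WT libraries by design. Its correlations, with Ticam1 as with H2-Eb1 and Cd74, therefore cannot describe how it is regulated.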

How the data were processed

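Bulk RNA-seq of 30 libraries was analysed from a table of expected counts by gene, as the authors deposited it. Per the submitters' processing notes the tools were fastp 0.24.0, STAR 2.7.11, SAMtools 1.22.1 and featureCounts of Subread 2.1.1, with GRCm38 (mm10) as the build. The notes give no order of the tools, annotation release or strand setting. Some 25.2% of values greater than 0 were fractional, and all were rounded to whole numbers before testing. Of 32361 IDs, 26314 had a gene name by GENCODE M21 and 6047 had none. Every value column was tied to a sample by its label.

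Genes were kept with edgeR's filter on low counts (minimum count 10, minimum total 15), which left 15119. Libraries were TMM-scaled and fitted together over 10 groups with 20 residual degrees of freedom by edgeR's quasi-likelihood test (edgeR 4.0.16, limma 3.58.1, R 4.3.3), with Benjamini-Hochberg adjustment over all genes and a threshold of 0.05. The common biological coefficient of variation was 0.0411. Levels are TMM-normalised CPM computed here. The script was tested on simulated data. Counts have no molecular identifiers. Replicates were compared in pairs with the spread of counting alone. The chi-square per degree of freedom ran from 1.114 (WT LPS 2 h replicates 1 and 2) to 9.59 (WT LPS 6 h replicates 1 and 3). How much of the spread between libraries is animal-to-animal spread was not tested. The 2 h libraries were shallower and less precise.

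All 10 members were named, up to 3 other pathway genes per list by the smallest p in KO against WT with LPS at 6 h, and 2 like genes per member by the highest correlation. The members and lists were chosen with earlier results of these data known. Alternatives were other scalings, other filters, replicate blocks, each library set alone, DESeq2 1.42.0 and leaving out each library. The pathway lists on total counts were added after seeing the data. RefSeq promoter windows of members outside chromosome 18 were searched for motifs on both strands.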

Additional observations from a re-analysis of the deposited data

Results flagged for a closer look

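For 34 results the effect of a ligand, or the difference between the ligands, was not the same in KO and WT cells by a direct test of that difference (interaction contrasts of edgeR's quasi-likelihood fit, adjusted over all genes). Values are the KO minus the WT effect on the log2 scale.

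In the response to LPS at 6 h, the difference was -3.48 for Peli1, -1.43 for Myd88, -1.01 for Cd14, -0.98 for Irak2, -0.63 for Ly96, -0.63 for Irak3, -0.45 for Traf6 and -0.42 for Tirap. In the response to LTA at 6 h it was -3.14 for Peli1, -1.3 for Cd14, -0.92 for Irak2, -0.79 for Myd88, -0.78 for Irak3 and -0.38 for Traf6.

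At 2 h most differences were positive. With LPS they were 2.38 for Ticam2, 1.59 for Irak3, 1.45 for Irak2, 1.15 for Tirap, 1.08 for Ticam1, 0.82 for Cd14 and 0.71 for Myd88, and -1.41 for Peli1. With LTA they were 2.19 for Ticam2, 1.61 for Irak3, 1.46 for Irak2, 1.03 for Ticam1, 0.78 for Cd14 and 0.55 for Myd88, and -0.73 for Peli1. The untreated cells of these contrasts belong to the other library set in both genotypes.

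The difference between LPS and LTA also depended on the genotype. At 6 h it differed by -0.64 for Myd88, -0.61 for Ly96, -0.34 for Peli1 and 0.28 for Cd14, and at 2 h by -0.68 for Peli1.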

How the results depend on the processing

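Of 1730 single-gene values under alternatives other than leaving out a library, 1680 kept their side of the threshold, 24 lost the call, 14 gained one and 12 that were called in either fit turned. Of the 1680, 23 that were called in neither fit changed sign, 7 of them with total counts. All 12 turned with total counts in place of TMM. They were Ly96 in the WT response to LTA at 6 h (-0.16); in KO against WT Ticam1 (0.33), Tirap (0.13) and Traf6 (0.24) with LPS at 6 h, and Tirap (0.13), Ly96 (0.32) and Traf6 (0.22) with LTA at 6 h; and in the KO minus WT response Ticam1 (0.39), Tirap (0.0836) and Traf6 (0.0521) to LPS at 6 h, and Ly96 (0.395) and Traf6 (0.0333) to LTA at 6 h. With total counts 5 members, not 8, were called in the KO minus WT response to LPS at 6 h, beside 10099 of all 15119 genes with total counts and 7641 with TMM. The stricter NF-kB motif matched 0 windows. The cause was not tested, other than that total counts leave the median gene away from 0. Relative log expression factors and a minimum count of 30 ended no call, and each library set fitted alone kept all 170 values on their side of the threshold.

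When each library was left out in turn, 1695 of 1740 single-gene values kept their side of the threshold (58 uncalled ones changed sign), 35 lost the call and 10 gained one. Counts of members called in KO against WT, with the targeted gene counted, ranged from 9 to 10 (LPS) and 7 to 8 (LTA) at 6 h. They stayed at 8 and 7 at 2 h and at 5 in untreated cells. In the KO minus WT response they ranged from 7 to 8 (LPS) and 5 to 7 (LTA) at 6 h.

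Libraries sharing a replicate number mostly did not deviate together (0 of 24 same-numbered pairs within a genotype and set had a correlation over 0.1, and 1 of 75 between genotypes did, at 0.185 for replicate 1 with LPS at 6 h), so the numbers were not taken to pair samples. A replicate block with numbers shared by the genotypes kept 229 of 230 values on their side of the threshold, though KO and WT animals differ. A block nested in genotype kept 179 of 180 and did not cover KO against WT. The exception in each was Tirap in the KO minus WT response to LTA at 6 h, which gained a call (-0.34). Depth limits Ticam2 in KO and Tirap and Traf6 at 2 h, and the 2 h set holds no untreated cells.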
